A study of Mus musculus with 10 samples.

Results

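The integrin chains through which the cells of the vessel wall hold on to matrix were read from RNA-seq counts of young and old mouse aortae. They are the alpha chains *Itga1*, *Itga3*, *Itga5*, *Itga7*, *Itga8*, *Itga9* and *Itgav* and the beta chains *Itgb1*, *Itgb3* and *Itgb5*. The genes were picked by symbol, 10 of 55453 in the table and 10 of its 27 integrin chains. The aortae came from male C57BL/6 mice, 5 aged 14.5 weeks (young) and 5 aged 92.5 weeks (old), and each library held the RNA of 1 mouse. No transgene or treatment separated the groups, and the aortae had been perfused with saline and freed of the fat around them. Each value therefore comes from a mixture of smooth muscle cells, fibroblasts, endothelial cells and other cells of the wall, in which fewer cells of a type and less RNA per cell cannot be told apart.

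An integrin is a receptor made of 1 alpha and 1 beta chain that spans the membrane, with the matrix on the outside and talin, kindlin and the actin cytoskeleton on the inside. The alpha chain largely sets the ligand. Chains encoded by *Itga1* bind collagen and laminin, those encoded by *Itga3* and *Itga7* bind laminin, and those encoded by *Itga5*, *Itga8* and *Itgav* bind proteins with an RGD (arginine, glycine, aspartate) motif such as fibronectin, nephronectin and vitronectin. *Itga9* encodes a receptor chain for tenascin-C and osteopontin. All of these alpha chains pair with the *Itgb1* product, whereas the *Itgb3* and *Itgb5* products pair with the *Itgav* product in cells of the vessel wall.

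Promoter sequence was available from RefSeq (GRCm38.p6) for 8 of the 10 genes. The 250 bases before the start of the most abundant alpha chain, *Itga8*, and of the most abundant beta chains, *Itgb1* and *Itgb5*, are shown because these 3 genes head the order of levels given further on. Capitals mark GGGCGG, a GC box that SP family factors can bind, or its reverse complement CCGCCC, and each sequence is given in the direction of its gene.

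*Itga8*, chr2:12301945-12302194, minus strand: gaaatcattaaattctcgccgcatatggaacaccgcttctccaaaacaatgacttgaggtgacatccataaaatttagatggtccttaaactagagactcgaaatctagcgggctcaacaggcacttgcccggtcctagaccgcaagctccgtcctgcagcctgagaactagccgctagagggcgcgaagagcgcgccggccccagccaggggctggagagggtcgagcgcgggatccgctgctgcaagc

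*Itgb1*, chr8:128685404-128685653, plus strand: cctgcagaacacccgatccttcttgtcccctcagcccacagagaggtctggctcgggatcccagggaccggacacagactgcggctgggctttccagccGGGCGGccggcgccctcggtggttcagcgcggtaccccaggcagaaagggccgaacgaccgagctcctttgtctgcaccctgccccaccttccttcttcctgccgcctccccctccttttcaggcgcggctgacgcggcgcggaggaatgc

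*Itgb5*, chr16:33829415-33829664, plus strand: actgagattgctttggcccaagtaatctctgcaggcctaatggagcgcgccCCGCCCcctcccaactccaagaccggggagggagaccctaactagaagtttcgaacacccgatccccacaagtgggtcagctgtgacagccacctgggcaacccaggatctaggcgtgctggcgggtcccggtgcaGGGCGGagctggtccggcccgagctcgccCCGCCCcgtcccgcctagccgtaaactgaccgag

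The *Itgb5* window held 3 GC boxes, the *Itgb1* window 1 and the *Itga8* window 0. Counting either strand, 4 of the 8 genes with an entry held a GC box (*Itga3*, *Itga5*, *Itgb1* and *Itgb5*), against 32.7% of all 32851 promoter windows of this length. The first is a count of genes and the second a share of windows, and *Itga3* had more than 1 window, each with a GC box. No entry of the 8 genes held a CArG box, the binding motif of serum response factor at many smooth muscle genes, which was present in 1.47% of all windows. The entry of *Itga9* (chr9:118711442-118711691) lies at a start inside the gene, so the window before the annotated start of *Itga9* at 118606690 was not searched. These matches describe the letters in the windows and no binding was measured.

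All 10 chains were expressed well above the limit of detection. Their raw counts ranged from 2406, for *Itgav* in its lowest library, to 89390, for *Itga8* in its highest, in libraries with 19640401 to 22886153 counts on genes. Levels are given below as normalized counts, the counts divided by the size factor of each library, with mean ± SD over 5 mice. Smooth muscle markers marked the tissue as labelled, with *Myh11* at 204480 or more in every library. Mitochondrial genes took 11.0% of the counts in old replicate 2 and 4.50 to 6.51% in the other libraries. Cell type markers beside which the integrins should be read are given after the results.

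Of the 10 chains, 1 passed the test in old against young aortae, and it was lower. This was *Itgb3*, the beta chain of the vitronectin receptor. Over all 14614 genes tested, 11.5% were called (edgeR quasi-likelihood test, Benjamini-Hochberg adjusted p below 0.05), with 4.99% lower and 6.48% higher in old aortae. The share of called genes among the integrins, 1 of 10, was thus near the background. By direction, 9 of the 10 log2 fold changes were below 0 and 1 was above, with a median of -0.10. The whole table had 7196 below and 7418 above 0, with a median of 0.003. The 10 genes were measured in the same mice and do not count as separate observations of a direction.

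**Figure D1:**
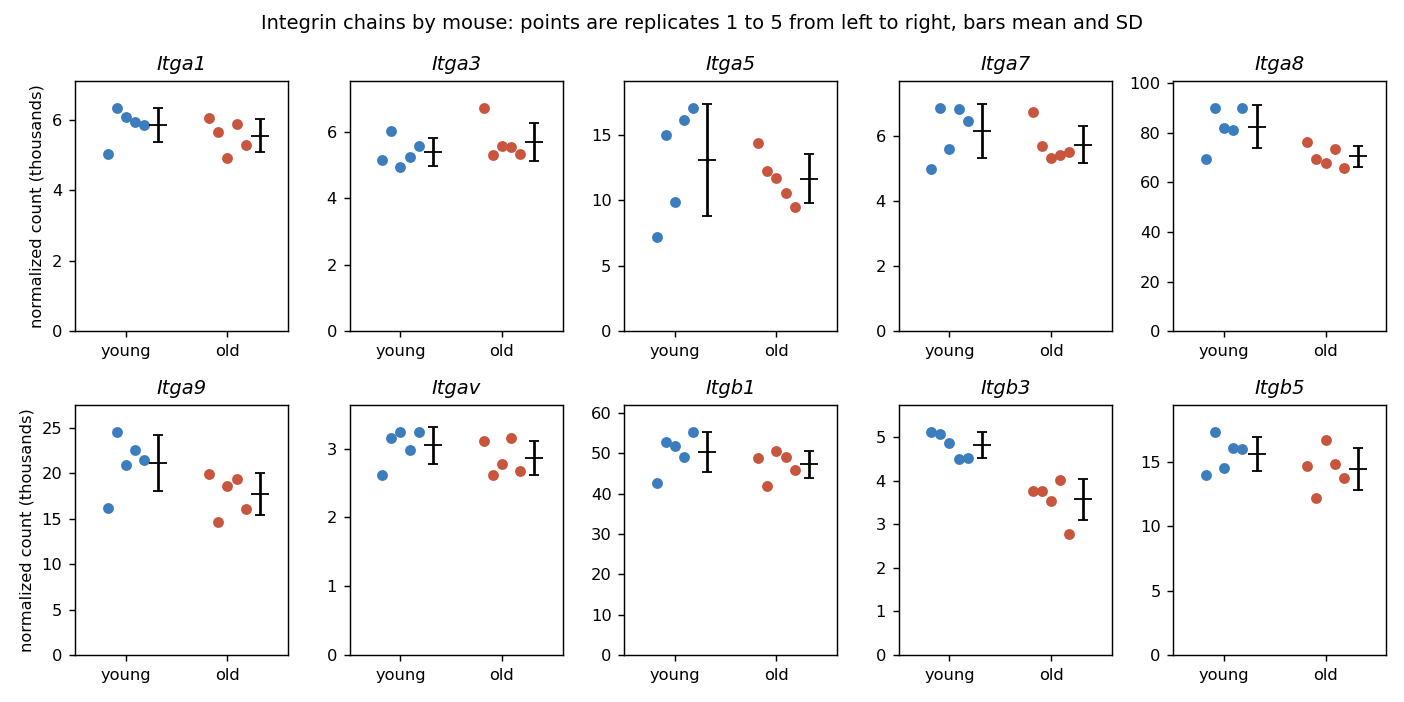
Normalized counts of the 10 integrin chains in each aorta (the vertical axis is in units of 10³ counts, each point is 1 mouse, bars are the mean ± SD of 5 young or 5 old mice). The old points for *Itgb3* lie between 2785 and 4022, all below the young points at 4489 to 5129, whereas the groups overlap for the other 9 chains.

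*Itgb3* had normalized counts of 5129, 5072, 4873, 4489 and 4524 in young replicates 1 to 5, and of 3766, 3763, 3543, 4022 and 2785 in old replicates 1 to 5. Every old aorta was below every young aorta. Groups without overlap, in either direction, were seen in 9.92% of all tested genes. The mean fell from 4817 ± 299 to 3576 ± 473. The fitted log2 fold change was -0.42 (SE 0.09, edgeR quasi-likelihood test, adjusted p = 0.0090), a change of -25.3% (95% interval -34.7 to -14.7%). Old replicate 5 was the lowest of the old aortae, and without it the log2 fold change was -0.34 with an adjusted p of 0.0234 by the same edgeR test. *Itgb3* was called lower under all 19 alternatives tried, with log2 fold changes between -0.47 and -0.34.

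The other chains with which *Itgb3* can be compared directly are its alpha partner *Itgav* and *Itgb5*, the other beta chain that joins *Itgav*. For *Itgav* the young mice averaged 3047 ± 267 normalized counts and the old mice 2870 ± 249, a log2 fold change of -0.08 (95% interval -0.24 to 0.09). For *Itgb5* the averages were 15626 ± 1344 and 14463 ± 1636, a log2 fold change of -0.10 (95% interval -0.29 to 0.08). Neither passed the test, and both intervals exclude a fall as large as the point estimate for *Itgb3*. Per kilobase of exon, the ratio of *Itgb3* to *Itgb5* was 0.187 ± 0.0229 in young and 0.150 ± 0.0260 in old aortae. The ratio of *Itgb3* to *Itgav* was 2.90 ± 0.398 in young and 2.27 ± 0.259 in old aortae. Both ratios had overlapping ranges, and whether the change of *Itgb3* differed from that of *Itgav* or *Itgb5* was not tested.

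*Itgb1*, the beta chain shared by most matrix receptors of the wall, averaged 50322 ± 4910 normalized counts in young mice and 47255 ± 3401 in old mice. Its log2 fold change was -0.08 (SE 0.08, 95% interval -0.26 to 0.09), so that a fall of more than 16.5% lies outside the interval. Among the 3 beta chains, *Itgb1* made up 70.2 ± 1.69% of the summed level per kilobase in young and 71.3 ± 0.749% in old aortae. *Itgb3* made up 4.69 ± 0.615% and 3.74 ± 0.548%, so the called chain was also the scarcest of the beta chains.

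Of the RGD-binding alpha chains, *Itga8* came closest to a call. *Itga8*, which encodes the nephronectin receptor chain of smooth muscle, had 69226, 89951, 82065, 81236 and 90042 normalized counts in young replicates 1 to 5. In old replicates 1 to 5 it had 76249, 69425, 67666, 73608 and 65910. Young replicate 1 lay among the old aortae, and the other young aortae lay above all of them. The log2 fold change was -0.22 (SE 0.08, 95% interval -0.40 to -0.04), a change of -14.0%, and did not pass the edgeR quasi-likelihood test (adjusted p = 0.112). Without young replicate 1 it did (adjusted p = 0.0222, edgeR), as it did with all libraries in DESeq2 (adjusted p = 0.0425).

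*Itga5*, the alpha chain of the classical fibronectin receptor, varied most between mice. Its normalized counts were 7239, 15002, 9902, 16117 and 17077 in young replicates 1 to 5, and 14354, 12257, 11704, 10563 and 9493 in old replicates 1 to 5. The old values lay within the young range. The coefficient of variation was 32.7% in young and 15.7% in old aortae, and the log2 fold change of -0.15 had the widest interval of the 10 chains (-0.65 to 0.34). A change of between -36.2 and 26.6% could therefore not be told from 0 with these mice.

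*Itga9* had 16200, 24596, 20873, 22577 and 21495 normalized counts in young replicates 1 to 5, and 19917, 14604, 18603, 19334 and 16021 in old replicates 1 to 5. As for *Itga8*, young replicate 1 was the young aorta that reached into the old range, and the other young aortae were above every old one. The log2 fold change was -0.25 (SE 0.11), and its adjusted p was 0.180 by the edgeR quasi-likelihood test with all mice and 0.0310 without young replicate 1. *Itgb3*, *Itga8* and *Itga9* were the 3 chains with an unadjusted p below 0.05.

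None of the laminin and collagen receptor chains passed the test, and their intervals leave a change of either sign possible. *Itga3*, which binds basement membrane laminins, was at 5393 ± 429 and 5700 ± 587 normalized counts and was the 1 chain with a positive log2 fold change (0.09, 95% interval -0.08 to 0.26). *Itga7*, the laminin receptor chain typical of muscle, was at 6142 ± 828 in young and 5733 ± 572 in old aortae (log2 fold change -0.09, 95% interval -0.30 to 0.12). *Itga1*, the collagen receptor chain, was at 5851 ± 492 and 5551 ± 459 (log2 fold change -0.07, 95% interval -0.23 to 0.10). Groups overlapped for all 3 genes. For 8 of the 10 integrins the 95% interval of the log2 fold change lay within 0.5 on either side of 0, as it did for 9053 of the 14614 tested genes, and the exceptions were *Itga5* and *Itgb3*.

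**Figure D2:**
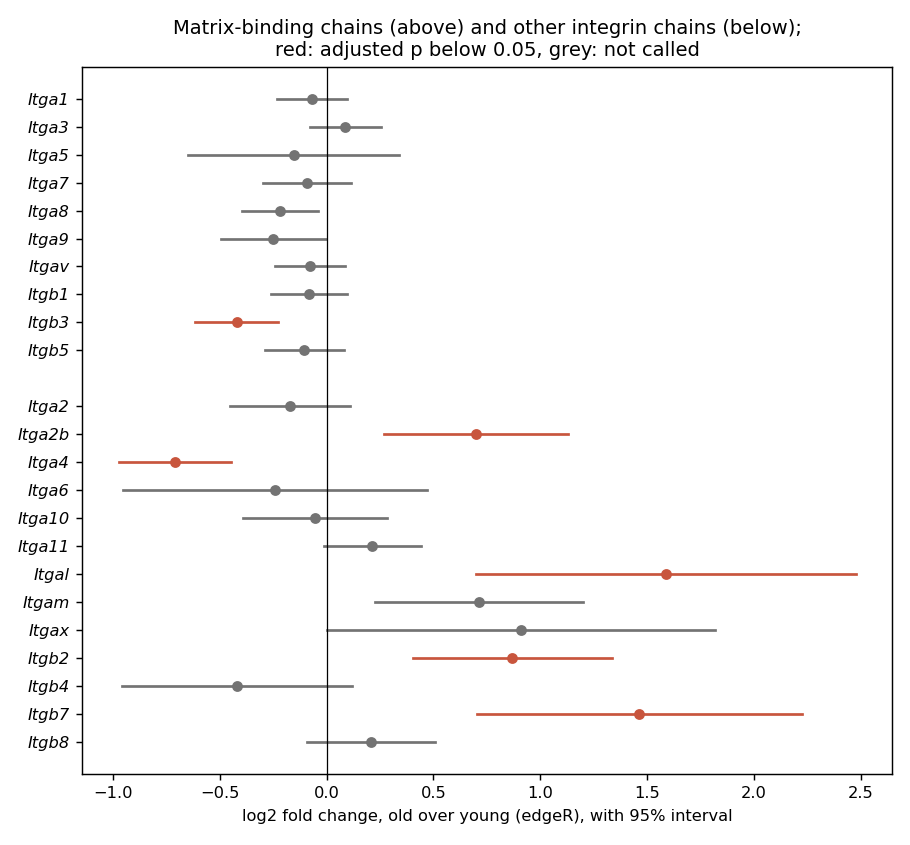
Log2 fold change, old over young, with 95% intervals from the edgeR fit (5 young and 5 old mice), of the 10 matrix-binding chains above and the 13 other tested integrin chains below (red, called; grey, not called). Among the 10, the interval of *Itgb3* runs from -0.61 to -0.23 and that of *Itga5* is the widest.

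Levels of different genes were compared per kilobase of exon. In young aortae, *Itgb1* (12331 ± 1203 normalized counts per kilobase) and *Itga8* (11198 ± 1156) led, and their ranges overlapped. *Itgb5* followed at 4398 ± 378, apart from its neighbours on both sides. *Itga9* (2750 ± 404 per kilobase) and *Itga5* (2649 ± 867) overlapped each other and lay above *Itga3* (944 ± 75.1), whose range overlapped that of *Itgb3* (816 ± 50.7). *Itgb3* in turn overlapped *Itga7* (759 ± 102), and *Itga1* (315 ± 26.5) and *Itgav* (284 ± 24.8) came last and overlapped. In old aortae the order of the means was the same except that *Itga5* stood before *Itga9* and *Itga7* (708 per kilobase) before *Itgb3* (606 per kilobase), and each of these pairs overlapped.

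*Itga8* alone held 59.5 ± 2.64% of the summed alpha chain level in young and 58.1 ± 1.48% in old aortae. *Itga9*, at 14.5 ± 0.789% and 13.9 ± 1.25% of that sum, and *Itga5*, at 13.7 ± 3.16% and 14.3 ± 1.49%, followed far behind. The third RGD-binding chain, *Itgav*, held only 1.51 ± 0.128% and 1.62 ± 0.0813%. The alpha chains that pair with *Itgb1*, summed without *Itgav*, stood at 1.51 times the *Itgb1* level per kilobase in young and 1.41 times in old aortae, with overlapping ranges. The order of 3 pairs hung on the length used. *Itga7* was below *Itga3* over the union of exons, at a ratio of 0.803 ± 0.0831 in young aortae, and above it over the longest transcript, at 1.38, and this pair turned in old aortae too. In young aortae *Itga8* was above *Itgb1* over the longest transcript, at 14196 against 13191 normalized counts per kilobase, and *Itga7* was above *Itgb3*, at 1528 against 833.

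**Figure D3:**
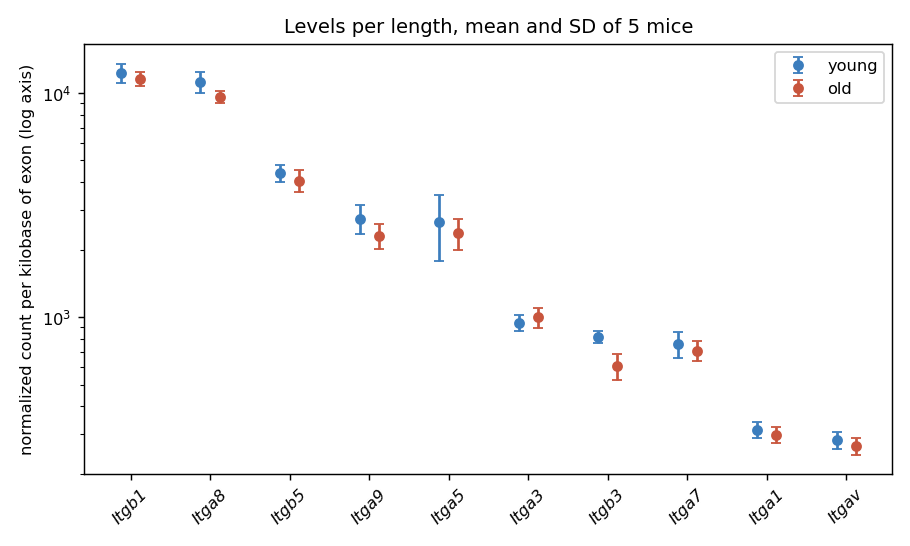
Mean normalized count per kilobase of exon of each chain on a log axis, in young and old aortae (points are means of 5 mice, bars are SD). In young aortae *Itgb1* at 12331 and *Itga8* at 11198 lead, in an order that turns over the longest transcript, and *Itgav* is lowest at 284.

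The integrins other than *Itgb3* also varied together from mouse to mouse within an age group. Young replicate 1 had the lowest young value for 8 of the 10 chains and the highest for 1, *Itgb3*. Among the old aortae, replicate 1 was highest for 6 chains and replicate 2 lowest for 5. Correlations were taken on log2 CPM (counts scaled to the library total adjusted by its TMM factor from edgeR) after the group means were removed. Pearson's r over the 10 mice had a median of 0.643 for the 36 pairs without *Itgb3*, between 0.110 and 0.901, the latter for *Itga5* with *Itga7*. For the 9 pairs with *Itgb3* the median was 0.137, between -0.06 and 0.284. These are descriptions over 10 libraries that share their scaling. The median over pairs of all tested genes was not computed, so the shared variation is not shown to be particular to integrins. The genes most like *Itgb3* in this measure were *Gm47484* (r = 0.940), *Ubqln2* (0.935) and *Madd* (0.915), over the 10 mice and all tested genes.

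**Figure D4:**
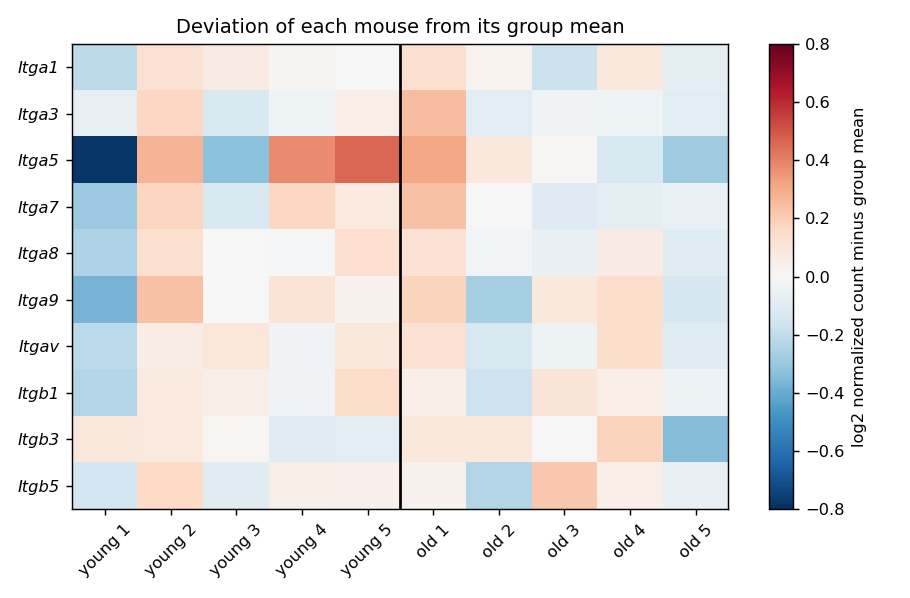
Deviation of each chain's log2 normalized count from the mean of its age group (colour scale, blue below and red above), with chains in rows, mice in columns and a line between young and old. Young replicate 1 is below the mean for every chain except *Itgb3*.

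The remaining 17 integrin chains of the table show which receptors moved beside the matrix-binding ones. Of these, 13 were abundant enough to be tested, 4 were called higher and 1 lower, beside 6.48% higher and 4.99% lower among all tested genes. *Itgb2*, the beta chain of leukocyte integrins, rose from 143 to 260 normalized counts on average (log2 fold change 0.87), and *Itgal*, the alpha chain of the leukocyte receptor for ICAM proteins, rose from 15.4 to 45.9 (1.59). *Itgb7*, a lymphocyte beta chain, ranged from 8.05 to 28.9 in young and from 39.0 to 99.7 in old aortae and rose (1.46), with every old aorta above every young one. *Itga2b*, the platelet partner of the *Itgb3* product, rose from 41.8 to 67.5 (0.70), opposite to *Itgb3* itself. *Itga4*, which encodes the alpha chain of the receptor for fibronectin and VCAM-1, fell from 218 ± 20.8 to 132 ± 20.4 normalized counts (-0.71, SE 0.12, edgeR adjusted p = 0.0025). The calls of *Itgb7* and *Itga4* did not depend on any single mouse. That of *Itgb2* ended without young replicate 4 or 5 (edgeR adjusted p up to 0.0582), that of *Itgal* without young replicate 2, 3, 4 or 5 or old replicate 2, 3 or 4 (up to 0.0671), and that of *Itga2b* without any 1 mouse other than young replicate 1 and old replicate 4 (up to 0.101). Over all 19 alternatives, the call of *Itgb2* held in 16, that of *Itgal* in 11 and that of *Itga2b* in 10. The edgeR adjusted p of *Itgal* reached 0.0848.

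The chains that did not pass were *Itga2* (log2 fold change -0.17), *Itga6* (-0.24), *Itga10* (-0.06), *Itga11* (0.21), *Itgam* (0.71), *Itgax* (0.91), *Itgb4* (-0.42) and *Itgb8* (0.21). *Itga2*, *Itga10* and *Itga11* encode the other collagen-binding alpha chains, *Itga6* and *Itgb4* the laminin receptor of epithelia and other cells, and *Itgb8* another partner of *Itgav*. *Itgad*, *Itgae*, *Itgb2l* and *Itgb6* were too low to test, and *Itgad* and *Itgb2l* had no count in any library. Part of the sequence of *Itgam* (66.3% of its 50-base windows) and *Itga10* (30.6%) also occurs in other annotated genes, so their counts are uncertain. For the 10 matrix-binding chains this share was at most 7.26%, in *Itgb5*. Annotated genes on the opposite strand overlapped 5.90% of the exons of *Itgav*, 5.05% of those of *Itga8* and 8.04% of those of *Itga4*, and the strand setting of the counting is not given in the sources used here.

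On the inside of the membrane, most genes for the adhesion proteins that integrins recruit did not pass the test. Of 31 tested genes of the focal adhesion core, 3 rose, 2 fell and 26 did not pass, with a median log2 fold change of -0.04, beside 11.5% called among all tested genes. *Tns2* (0.38) and *Tns3* (0.39), tensins that link integrin tails to actin, and *Fermt3* (0.54), the kindlin of blood cells, rose. *Fermt2* (-0.28), the kindlin of most adherent cells, and *Zyx* (-0.30), a protein of adhesions under tension, fell. Of 20 regulators of integrin activity and trafficking, 18 did not pass, *Thy1* (0.63), a surface protein that binds integrins, rose and *Cav1* (-0.47), the main protein of caveolae, fell, with a median of 0.00. The calls of *Fermt3*, *Fermt2* and *Zyx* each ended without young replicate 2, 4 or 5 or old replicate 3, those of *Fermt3* and *Zyx* also without old replicate 4, and those of *Fermt2* and *Zyx* without old replicate 5 (edgeR adjusted p up to 0.0966). That of *Thy1* ended without young replicate 4 or 5 or old replicate 3 (up to 0.0609). Other processing choices ended calls as well. Over all 19 alternatives, the calls of *Fermt3* and *Thy1* held in 14, that of *Fermt2* in 13 and that of *Zyx* in 12. The edgeR adjusted p reached 0.102 for *Fermt2* and 0.1125 for *Thy1*.

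On the outside, most collagen ligands fell. Of 13 collagen genes tested, 8 fell and 0 rose, beside 4.99% lower among all tested genes, with a median log2 fold change of -0.47, while *Itga1* was at -0.07. *Col3a1* (-0.93), *Col1a1* (-0.91), *Col1a2* (-0.75) and *Col6a1* (-0.63) had the smallest p. In *Col3a1* the old aortae ranged from 31795 to 46858 normalized counts and the young from 66952 to 85368. Of 10 laminin chain genes, 3 fell and 0 rose, with a median of -0.27. These were *Lamb1* (-0.67), *Lama4* (-0.33) and *Lamc1* (-0.31), which contribute to laminins of the basement membranes of muscle and endothelium. The laminin receptor chains *Itga3* and *Itga7* were at 0.09 and -0.09, and *Itga6*, of the other chains, was at -0.24. Which laminins each chain binds in these aortae was not measured. The call of *Lamc1* ended without young replicate 2, 4 or 5 or old replicate 5 (edgeR adjusted p up to 0.0695), and that of *Lama4* without young replicate 2, 4 or 5 or old replicate 2, 3 or 4 (up to 0.103). Over all 19 alternatives, the call of *Lamc1* held in 14 (edgeR adjusted p up to 0.0781) and that of *Lama4* in 12.

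Of 20 tested ligands of the RGD-binding or *Itga9* receptors, 3 fell and 2 rose, beside 4.99% lower and 6.48% higher among all tested genes. Their median log2 fold change was -0.07. *Npnt*, encoding nephronectin, the ligand of the *Itga8* receptor, had 27233, 34621, 31440, 36024 and 37361 normalized counts in young replicates 1 to 5. In old replicates 1 to 5 it had 23542, 18883, 21412, 22386 and 21495. No old aorta reached the young range, and the log2 fold change was -0.62 (SE 0.09, edgeR adjusted p = 0.0009). *Fbn1* (-0.57), which encodes fibrillin-1, and *Ccn2* (-0.76), a matricellular protein, also fell. The call of *Ccn2* ended without the low-count filter and with the replicate block (edgeR adjusted p up to 0.0670). *Ibsp*, encoding bone sialoprotein, rose from 16.3 to 141 normalized counts (3.12), and *Tgfb1* (0.31), whose latent form is bound by *Itgav* receptors, rose as well. *Fn1*, which encodes fibronectin, the ligand of the *Itga5* receptor, was at a log2 fold change of 0.43 and did not pass the test (edgeR adjusted p = 0.107). Of the *Itga9* ligands, *Spp1* (osteopontin) was at 2.89 and did not pass either (edgeR adjusted p = 0.069). It ranged from 44.0 to 301 normalized counts in young and from 242 to 2383 in old aortae, with the highest value in old replicate 3. *Tnc* (tenascin-C) was at -0.06 and did not pass.

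**Figure D5:**
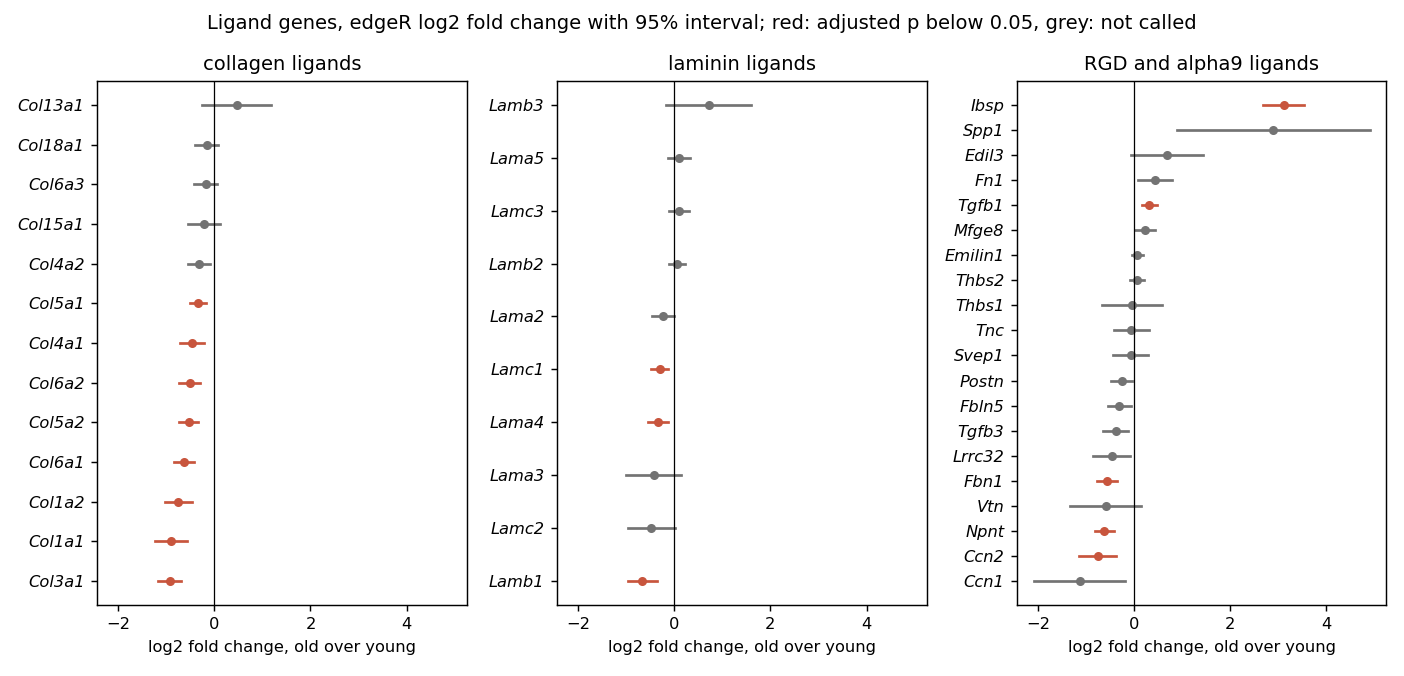
Log2 fold change, old over young, of each tested ligand gene with its 95% interval from edgeR, in panels for collagens, laminins and ligands of the RGD-binding or *Itga9* receptors (red, called; grey, not called). Of the 13 collagen genes 12 lie below 0, whereas *Ibsp* at 3.12 is the highest point of the RGD panel.

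Markers of cells that carry these receptors were read in the same libraries. The counts of called markers, here and in the next paragraph, stand beside 4.99% lower and 6.48% higher among all tested genes. The summed normalized counts of 10 smooth muscle markers ranged from 828167 to 983634 in young and from 765006 to 933208 in old aortae, with 1 called higher (*Smtn*, 0.29) and a median of -0.11. The *Smtn* call ended without young replicate 3 or 5 or old replicate 5 (edgeR adjusted p up to 0.0610). Over all 19 alternatives it held in 15 (edgeR adjusted p up to 0.0819). The 10 endothelial markers summed to 24578 to 39694 in young and 14094 to 28372 in old aortae. All 10 were below 0, with a median of -0.58, and *Tek* (-0.87) was called lower, a call that ended without young replicate 1, 3 or 5 or old replicate 1, 3 or 5 (edgeR adjusted p up to 0.0859). Over all 19 alternatives the *Tek* call held in 11 (edgeR adjusted p up to 0.1775). The part of endothelial cells in the fall of *Itgb3* was not tested. Platelet markers were scarce, with *Gp6* and *Treml1* at 0 in some libraries, and their sum went from 289 to 443 in young to 418 to 700 in old aortae. Their only call, among 4 tested genes of 8, was *Itga2b*, higher.

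Among 8 tested leukocyte markers of 12, beside 6.48% higher and 4.99% lower among all tested genes, 4 rose (*Cd3g*, *Cd68*, *Adgre1* and *C1qa*), 0 fell, and the median was 0.81. They summed to 2729 to 3666 normalized counts in young and 3765 to 7697 in old aortae, in the direction of *Itgb2*, *Itgal* and *Itgb7*, and their part in those rises was not tested. The *Adgre1* call ended without young replicate 2, 4 or 5 (edgeR adjusted p up to 0.0633), and that of *C1qa* without young replicate 2, 3, 4 or 5 or old replicate 2 (up to 0.0717). Over all 19 alternatives, the call of *Adgre1* held in 15 (edgeR adjusted p up to 0.0813) and that of *C1qa* in 12 (up to 0.0967). Of 10 fibroblast markers, *Lum* (0.58) rose and *Pi16* (-0.58) fell, with a median of -0.10, and the *Pi16* call ended with the replicate block (edgeR adjusted p = 0.0759). The 8 adipocyte markers had no call and a median of -1.02. They summed to 10777 to 37121 normalized counts in young and 6195 to 15386 in old aortae. Young replicate 1 was the highest young aorta for each of them, with *Adipoq* at 2665 against 709 to 1314 in the other young aortae. Whether this relates to the low values of that aorta for most integrins was not tested. Of 7 tested Schwann cell markers, *Prx* (0.38) rose and *Pmp22* (-0.40) fell, with a median of 0.38. Of 7 tested striated muscle markers, *Tnnt2* (1.74) and *Ryr2* (0.23) rose and *Actc1* (-2.02) fell, with a median of -0.74. The *Prx* call ended without young replicate 2, 4 or 5 or old replicate 3 or 5, and that of *Ryr2* without any 1 mouse other than young replicates 1 and 2 and old replicate 3 (edgeR adjusted p up to 0.0780). Over all 19 alternatives, the call of *Prx* held in 13 and that of *Ryr2* in 10. The *Actc1* call ended without the low-count filter (edgeR adjusted p = 0.0600).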

How the data were processed

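Aortic RNA of 10 male mice was sequenced, 1 library per mouse. The authors removed reads under 35 bases with fastp 0.20.0, aligned to GRCm38 with STAR 2.7.0f and counted per gene with featureCounts of Subread 1.6.4, as the submitters' processing notes and the study's methods give it. The deposited values are these raw counts. Genes were filtered with filterByExpr and compared with the quasi-likelihood F test of edgeR 4.0.16 under R 4.3.3 (robust, TMM, no covariate), with Benjamini-Hochberg adjustment over 14614 of 28011 genes with a count and a threshold of 0.05. Normalized counts use the size factors of DESeq2 1.42.0. Exon lengths and overlaps came from GENCODE M21, whereas the authors used M22. The p-values measure the spread between 5 mice per group.

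The integrins and lists were chosen with earlier results of these data known. The text names all 10 integrins, every other integrin chain tested, in each list at most 4 called genes per direction by smallest p, and the 3 genes nearest to a called integrin. *Fn1*, *Spp1*, *Tnc* and single markers given as values were named besides. Within a group, the chi-square between libraries was 8.61 to 64.1 times its degrees of freedom in 20 pairs, so none was a copy. Same-numbered young and old libraries had correlations of -0.300 to 0.132 after the group means were removed. No clear pairing of mice by replicate number was seen, but this check cannot exclude a weak one. Tested on simulated counts for 14614 genes with 200 changed by a log2 fold of 1, edgeR recovered 173 with 4 false calls, DESeq2 179 with 30, and limma-voom 171 with 4. No smaller change was simulated, so recovery at the sizes seen for the 10 integrins is not known. The alternatives were DESeq2, limma-voom 3.58.1, DESeq2 or upper-quartile factors, library size alone, other low-count filters, a threshold of 0.01, GC and length offsets, the replicate number as a block and the omission of each mouse.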

Additional observations from a re-analysis of the deposited data

Results flagged for a closer look

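In groups of 5 aortae, the highest or lowest library stood apart from the others by Dixon's criterion in 7 of 46 groups of integrin chains, where chance flags about 1 in 20 groups. Among the matrix-binding chains, old replicate 1 stood apart as the highest old aorta for *Itga3*, at 6729 normalized counts against 5573 in the next, and for *Itga7*, at 6724 against 5698. Both genes encode laminin receptor chains. Among the other chains, *Itga6* was at 412 in old replicate 2 with the next at 211, and *Itga11* was at 281 in young replicate 3 with the next at 311. *Itgal* was at 30.7 in young replicate 1 with the next at 14.3. *Itgb2* was at 429 in old replicate 3 with the next at 252, and *Itgb7* was at 99.7 in the same aorta with the next at 51.2.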

How the results depend on the processing

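*Itgb3* was called lower under all 19 alternatives at a threshold of 0.05 (edgeR unless the alternative is another tool, adjusted p 0.0002 to 0.0234), and also at a threshold of 0.01. No matrix-binding chain was called higher under any of them. The count of chains called lower was 1 and became 2 with DESeq2, which added *Itga8*, and ranged from 1 to 3 when each mouse was left out, with 3 (*Itgb3*, *Itga8* and *Itga9*) without young replicate 1. Other integrin chains called fell from 5 to 1 at a threshold of 0.01 and to 3 with the replicate block, and ranged from 2 to 6 with each mouse left out. Genes called across the table went from 1676 to 658 at 0.01 and ranged from 1132 to 2367 with each mouse left out. Genes called in the ligand, adhesion and marker lists went from 37 to 15 at 0.01 and 61 with DESeq2, and ranged from 24 to 52. The log2 fold change of *Itga10* turned positive without young replicate 1 (0.00083) and without old replicate 3 (0.0501), and was -0.19 at its lowest, without old replicate 2. No matrix-binding chain changed sign. With the replicate number as a block, 1261 genes, 1 matrix-binding chain and 27 list genes were called, and the own number was the best match for 2 of 5 young libraries. The causes of these changes were not tested. With 5 mice per group, changes as small as those of *Itga1*, *Itga3*, *Itgav*, *Itgb1* and *Itgb5* could not be told from 0.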
